A study of Mus musculus with 2 samples.

Results

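Chromatin accessibility was examined at 10 genes for temporal competence factors of retinal progenitor cells (RPCs): Nfia, Nfib, Nfic, Nfix, Ikzf1, Ikzf4, Casz1, Pou2f1, Pou2f2 and Foxp1. A peak was assigned to a gene when its summit lay in the annotated gene body or within 50 kb on either side. By this rule the genes held 352 of 117165 ATAC-seq peaks in control late RPCs and 369 of 124935 peaks in late RPCs that overexpressed Neurog3 (Ngn3-OE). Peaks were assigned by position only, not by their signal.

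ATAC-seq maps DNA that the Tn5 transposase can reach, and open regulatory regions therefore collect many sequenced fragments. Retinas of mouse pups received a control or an Ngn3-OE plasmid, both marking cells with GFP, by in vivo electroporation at postnatal day 1, and GFP+ cells were sorted at day 2 after electroporation. Each group was 1 library made from 50000 sorted cells, so the libraries differed by plasmid only, as far as the labels and methods state, and the mouse strain and the promoter of the plasmids are not given in the sources used here. Without replicates no test of the condition was possible, and all intervals below cover counting error only.

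Multipotent RPCs produce the retinal cell types in a fixed order, and temporal competence factors are the transcription factors that set which types can be made at which age. Ikzf1 (Ikaros) and Foxp1 act in early RPCs, Casz1 acts at middle and late stages and is repressed by Ikzf1, and the nuclear factor I (NFI) genes Nfia, Nfib and Nfix act in late RPCs, where they promote cell cycle exit and the formation of bipolar cells and Müller glia. Ikzf4, an Ikaros relative, acts in early cone production and in gliogenesis, and the POU factors Pou2f1 and Pou2f2 promote cone fate. Nfic is the remaining NFI family member, and its place in the retinal timetable is less well known.

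Peaks that differed widely between the libraries are given here by their sequence around the control summit, or around the only summit for a peak found in a single library. All are on the plus strand of GRCm38 (mm10). Capitals mark the E-box core CATCTG, which is the core of the NGN3 motif, and the SOX motif (CCATTGT or CCTTTGT), on either strand, so that CAGATG and ACAAAGG are the same motifs read from the other strand. Among shared peaks with at least 30 tags over both libraries, the set holds those lowest in Ngn3-OE relative to control (4, since a pair tied) and the 3 highest, together with the strongest peak of each library without a counterpart in the other.
Nfix window, intergenic, lower in Ngn3-OE (chr8:84655654-84655854): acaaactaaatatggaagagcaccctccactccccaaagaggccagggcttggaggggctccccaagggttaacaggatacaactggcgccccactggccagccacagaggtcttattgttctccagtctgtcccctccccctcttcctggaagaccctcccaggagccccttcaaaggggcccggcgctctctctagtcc
Nfia intron, lower in Ngn3-OE (chr4:97948402-97948602): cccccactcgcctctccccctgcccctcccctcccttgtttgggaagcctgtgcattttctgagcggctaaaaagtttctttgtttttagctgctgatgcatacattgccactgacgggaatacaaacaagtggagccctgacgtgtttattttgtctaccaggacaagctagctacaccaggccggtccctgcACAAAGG
Nfix distal intron, lower in Ngn3-OE (chr8:84712503-84712703): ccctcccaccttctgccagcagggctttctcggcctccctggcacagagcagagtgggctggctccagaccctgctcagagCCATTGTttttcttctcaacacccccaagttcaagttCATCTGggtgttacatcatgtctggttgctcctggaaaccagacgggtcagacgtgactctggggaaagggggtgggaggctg
Nfix middle intron, lower in Ngn3-OE (chr8:84728487-84728687): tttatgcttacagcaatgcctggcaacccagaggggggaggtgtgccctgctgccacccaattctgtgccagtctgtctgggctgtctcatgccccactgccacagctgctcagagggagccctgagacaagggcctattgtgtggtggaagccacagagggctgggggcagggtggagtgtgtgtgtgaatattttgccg
Foxp1 intron, higher in Ngn3-OE (chr6:99377224-99377424): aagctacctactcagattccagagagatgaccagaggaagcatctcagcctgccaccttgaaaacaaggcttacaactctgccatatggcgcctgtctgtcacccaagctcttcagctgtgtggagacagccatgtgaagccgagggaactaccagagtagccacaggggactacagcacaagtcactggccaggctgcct
Nfib intron, higher in Ngn3-OE (chr4:82636075-82636275): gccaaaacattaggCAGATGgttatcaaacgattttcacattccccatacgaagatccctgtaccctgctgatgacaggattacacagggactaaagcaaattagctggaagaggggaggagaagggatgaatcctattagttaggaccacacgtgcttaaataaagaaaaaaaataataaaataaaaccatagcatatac
Nfix upstream of a start site, higher in Ngn3-OE (chr8:84801204-84801404): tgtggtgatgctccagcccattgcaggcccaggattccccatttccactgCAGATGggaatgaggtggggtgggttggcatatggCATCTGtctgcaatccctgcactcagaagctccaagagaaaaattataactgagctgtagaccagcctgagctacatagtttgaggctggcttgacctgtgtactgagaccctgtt
Casz1 intron, control-only (chr4:148876149-148876349): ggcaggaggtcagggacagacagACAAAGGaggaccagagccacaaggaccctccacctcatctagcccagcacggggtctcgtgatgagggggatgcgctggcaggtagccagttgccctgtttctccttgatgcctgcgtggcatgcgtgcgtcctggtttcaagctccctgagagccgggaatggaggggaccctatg
Casz1 upstream region, Ngn3-OE-only (chr4:148771613-148771813): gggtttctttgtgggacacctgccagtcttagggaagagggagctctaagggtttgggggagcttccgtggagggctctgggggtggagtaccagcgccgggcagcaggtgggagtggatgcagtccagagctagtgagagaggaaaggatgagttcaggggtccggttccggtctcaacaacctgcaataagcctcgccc

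Of the 4 lower peaks, the sequences of the Nfia intron and the distal Nfix intron held a SOX motif. The Nfia match lay 94 bp from the summit, at the edge of the sequence, and ran past the end of the control peak. The distal Nfix intron also held a CATCTG core 18 bp from its summit. The intergenic and the middle intronic Nfix sequences held neither motif. Among the higher peaks, the Nfib sequence carried a complete NGN3 E-box and the Nfix sequence carried 2 CATCTG cores, whereas the Foxp1 sequence carried neither motif. A motif match is a description of these letters and not evidence of binding.

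Before the single genes, the libraries were compared as a whole. The median peak had 9 tags at its summit in both, where a tag is the unit of the pileup that the peak caller counts, and the summit tags summed to 1948943 in control and 2085739 in Ngn3-OE. No control peak and 1 Ngn3-OE peak lay at Neurog3, the overexpressed gene, and that peak had 1591 tags, against 326 for the next strongest peak in the library. Copies on the plasmid and the chromosomal gene cannot be told apart here. The 9 retinal progenitor markers reported here (such as Pax6 and Sox2, which had fewer tags in Ngn3-OE, and Rax, which did not) had a peak at a start site in both libraries, with tags that summed to 501 in control and 442 in Ngn3-OE. The sum over 4 rod markers was 151 and 222, over 3 cone markers 116 and 135 and over 4 ganglion cell markers 80 and 101. It was 42 and 46 over 4 bipolar, 25 and 27 over 2 horizontal and 77 and 64 over 4 amacrine markers. The 4 Müller glia markers summed to 178 and 178, most of it from Glul (122 and 123). All 4 microglia and blood markers were without a start-site peak in both, and 1 of 3 endothelial and 2 of 2 astrocyte markers had one in both. In a sorted population, fewer cells of a type and less accessibility per cell cannot be told apart, and the part that these marker values had in the results below was not tested.

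The 10 genes kept most of their accessible regions in Ngn3-OE late RPCs. Peaks of the 2 libraries that had at least 1 bp in common were called shared, and the rest are called one-library peaks. Of the 352 control peaks, 73 were control-only (20.7%, 95% Wilson interval 16.8 to 25.3), beside a background of 21.7 percent over all control peaks. Of the 369 Ngn3-OE peaks, 85 were Ngn3-OE-only (23.0%, 19.0 to 27.6), beside 26.6 percent over all Ngn3-OE peaks. Both shares had intervals that included the background. The peaks at these genes were slightly stronger than average, with a median of 11 summit tags in each library against 9 over all peaks.

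The one-library peaks were weak, as they were over all peaks. Their median was 6 tags in both libraries, against 5 over all one-library peaks, and their highest value was 20 tags in control and 15 in Ngn3-OE, whereas shared peaks had a median of 13 tags in control and 14 in Ngn3-OE. A −log10 q of 5 was reached by 22 of the 73 control-only peaks (30.1%, against 23.9% of all) and 21 of the 85 Ngn3-OE-only peaks (24.7%, against 25.4%). Casz1 held 13 control-only and 15 Ngn3-OE-only peaks (25% and 27.8% of its peaks) and Foxp1 held 12 and 16 (26.7% and 32.0%). Nfix held 5 and 14 (10.9% and 25.5%), Nfib 10 and 15 (16.7% and 22.4%), and Nfic 7 and 9 (21.2% and 26.5%). The order was the other way for Nfia, with 11 control-only and 6 Ngn3-OE-only peaks (28.9% and 18.2%), and for Pou2f2, with 6 and 3 (24.0% and 13.0%). Pou2f1 held 5 and 4, Ikzf4 3 and 1, and Ikzf1 1 and 2, so no gene had one-library peaks in only 1 direction.

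**Figure D1:**
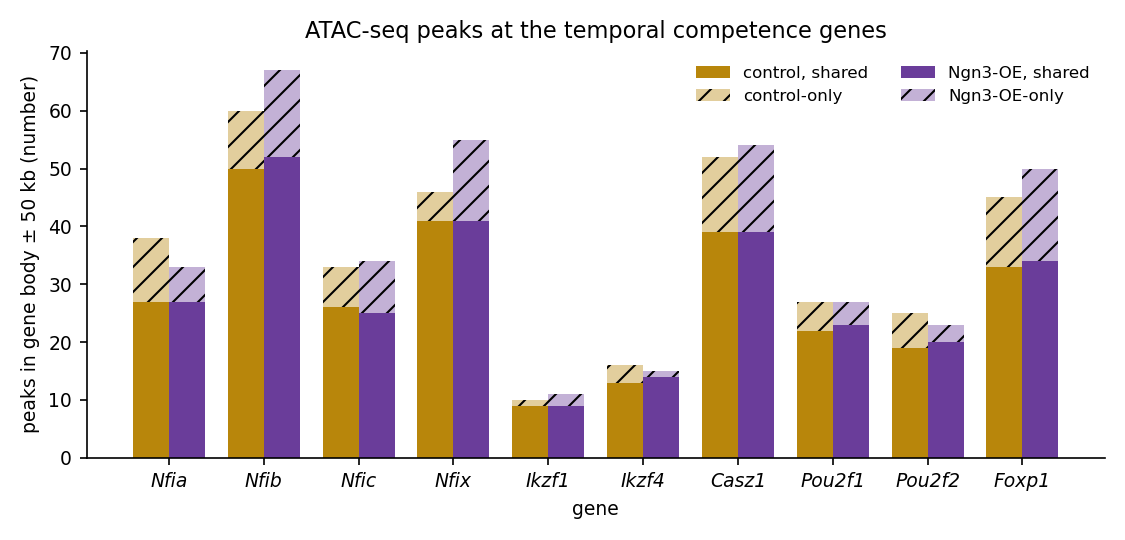
Number of ATAC-seq peaks in the gene body and 50 kb on either side of each of the 10 genes, for control (left bar) and Ngn3-OE (right bar), with the hatched part of a bar giving the peaks without a counterpart in the other library. Nfib, with 60 and 67 peaks, stood highest and Ikzf1, with 10 and 11, lowest, and the solid, shared part made up most of every bar.

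Peaks were dense at several of these genes and sparse at Ikzf1. The control library had 22.9 peaks per 100 kb at Nfix, 20.8 at Casz1 and 20.7 at Nfic, which placed them at percentiles 99.3, 98.4 and 98.3 of 21911 protein-coding genes, whose median was 6.83. At the low end, Foxp1 had 6.45 and Ikzf1 5.32 peaks per 100 kb, at percentiles 47.0 and 38.9. The Nfic window also held the start sites of 11 other coding genes and the Nfix window those of 9, while the windows of Nfia, Nfib, Casz1, Pou2f1 and Foxp1 held the start site of no other coding gene, although some peaks at their edges were nearest to a neighbour such as Pex14 or Cd247. Casz1 was the densest of these 5 genes.

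Most of the regions were intronic. In control, 199 of 352 peaks (56.5%, 51.3 to 61.6) had an intronic summit against 37.7% of all peaks, 118 (33.5%, 28.8 to 38.6) lay within 3 kb of any start site against 31.3%, and 25 (7.10%, 4.86 to 10.3) were intergenic against 28.4%. The assignment by gene body fixes part of that difference. Of the 118 promoter peaks in control, 32 were at a start site of the gene itself and 86 at that of another gene or noncoding transcript, and the numbers in Ngn3-OE were 41 and 83. For 124 control peaks and 135 Ngn3-OE peaks, the nearest coding start site belonged to another gene, which limits what the windows of Nfic, Nfix, Ikzf4, Pou2f2 and, with 3 of 10 control peaks nearest to its own start site, Ikzf1 say about those genes.

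For shared peaks the summit tags of both libraries were set side by side, as a log2 ratio of Ngn3-OE to control after subtraction of the median log2 ratio of all 90469 pairs (0.08). The 277 pairs at the 10 genes summed to 5905 tags in control and 6074 in Ngn3-OE, a log2 ratio of −0.04 (95% interval −0.09 to 0.01). The median pair stood at 0.03, and 143 of the 277 pairs (51.6%) lay above 0, against 49.8% of all pairs. Taken over the 10 genes, accessibility in Ngn3-OE was within counting error of control.

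Single genes differed little when the whole window was summed. Nfix had 1133 tags in control and 1097 in Ngn3-OE over 41 pairs, a log2 ratio of −0.13 (−0.25 to −0.01), and was the only gene whose window interval left out 0. Foxp1 stood highest, with 330 and 383 tags and a log2 ratio of 0.13 (−0.08 to 0.35). Ikzf1 (210 and 196 tags, −0.18) and Ikzf4 (270 and 253 tags, −0.18) stood lowest, with intervals from −0.47 to 0.11 and from −0.43 to 0.08. The ratios of Nfia (424 and 428 tags), Nfib (775 and 841), Nfic (1000 and 1020), Casz1 (912 and 973), Pou2f1 (364 and 383) and Pou2f2 (487 and 500) lay between −0.07 and 0.04. All 10 values fell inside the range from −0.29 to 0.27 that spans the 5th to the 95th percentile of 15171 coding genes with at least 5 pairs.

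In counts restricted to the gene body, Nfix and Pou2f1 stood lowest, with intervals that left out 0 but overlapped those of other genes. Inside Nfix, 20 pairs had 328 tags in control and 260 in Ngn3-OE, a log2 ratio of −0.42 (−0.66 to −0.18), with 12 pairs below 0 and 8 above. Inside Pou2f1, 8 pairs had 111 and 85 tags, a log2 ratio of −0.47 (−0.89 to −0.05), with 7 of the 8 pairs below 0. These ratios were at percentiles 5.22 and 4.00 of 2972 coding genes with at least 5 pairs in the body, for which the 5th percentile was −0.43. The lowest Nfix pairs, 2 intronic peaks, were nearer to the start site of G430095P16Rik, a coding gene within the Nfix window, than to one of Nfix. Over the peaks of the window whose nearest coding start site was that of the gene itself, the log2 ratio was −0.016 for Nfix and −0.12 for Pou2f1. The body of Pou2f1 left out the pairs at its outer start sites (59 and 70, 64 and 62 tags). Without the pairs lower by 2-fold or more, the body ratios were −0.14 (−0.41 to 0.12) for Nfix and −0.33 (−0.80 to 0.13) for Pou2f1. That recount moves toward 0 by its own construction.

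The other gene bodies were level or slightly higher in Ngn3-OE. Nfic had 333 and 402 tags over 11 pairs (log2 ratio 0.19, −0.02 to 0.40), Foxp1 296 and 342 over 31 pairs (0.13, −0.10 to 0.36) and Nfib 726 and 798 over 46 pairs (0.05, −0.09 to 0.20). Casz1 had 756 and 785 tags over 30 pairs (−0.03, −0.17 to 0.12), Nfia 234 and 233 over 19 pairs (−0.09, −0.36 to 0.18) and Pou2f2 99 and 106 over 8 pairs (0.02, −0.39 to 0.43). Ikzf1 and Ikzf4 had 2 pairs each in the body, too few for a ratio to be read. The intervals of these 6 ratios all included 0.

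**Figure D2:**
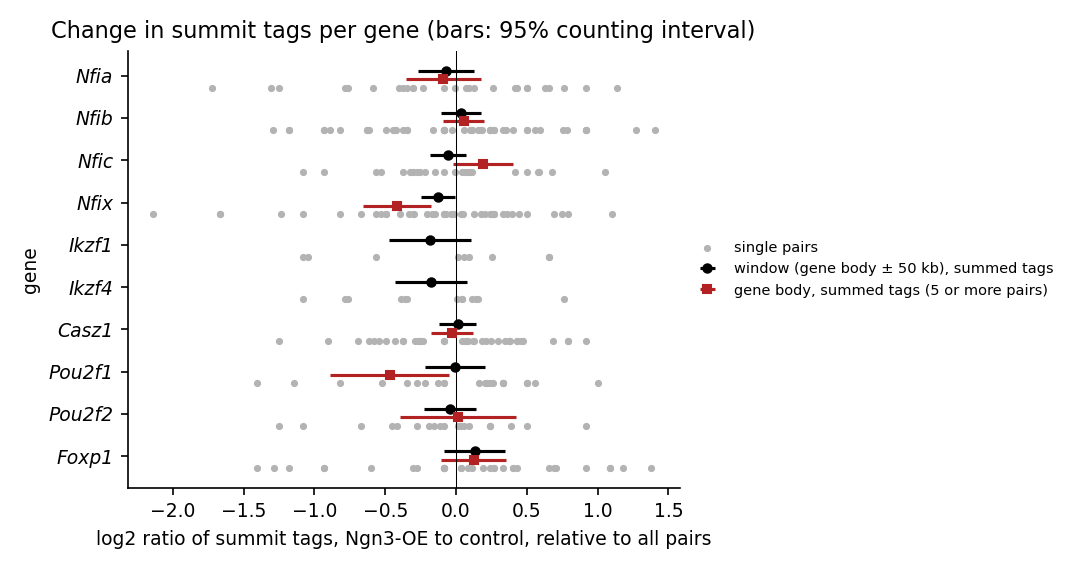
Log2 ratio of summit tags, Ngn3-OE to control, relative to the median of all shared pairs (x axis), for each gene: grey points are single pairs, black circles the summed window and red squares the summed gene body where it held 5 or more pairs, with 95% counting intervals. The red squares of Nfix (−0.42) and Pou2f1 (−0.47) lie left of 0 while their window values (−0.13 and −0.01) lie close to it.

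At single peaks, differences of 2-fold or more were read only where a pair had at least 30 tags over both libraries, as 133 pairs did. In this set, 9 pairs (6.77%) were lower in Ngn3-OE by 2-fold or more, beside 4.29 percent of all pairs, and 4 (3.01%) were higher, beside 2.20 percent of all pairs. None of the 62 promoter pairs was among the lower ones (Wilson interval up to 5.83%, against 1.66% of all promoter pairs). This split depends on the start sites of the basic annotation. The lower Nfib pair (44 and 19 tags) lay near the 5′ end of the gene body. It was classed as intronic because the nearest start site in that annotation was 12143 bp away. Outside promoters, 9 of 71 pairs were lower (12.7%, 6.81 to 22.4) against 7.18% of all such pairs, and 8 of 54 intronic pairs were lower (14.8%, 7.70 to 26.6) against 7.07%. The interval outside promoters thus included the background, and the intronic interval began just above it.

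**Figure D3:**
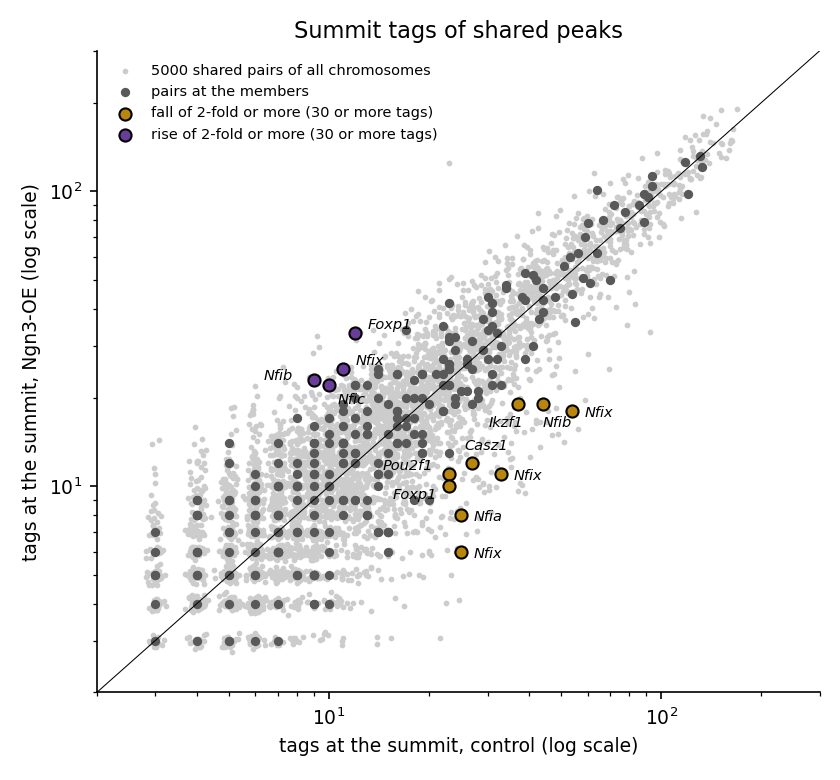
Tags at the summit in control (x axis) and Ngn3-OE (y axis) for shared peaks, both axes on a log scale, with grey points for 5000 pairs drawn from all chromosomes, dark points for the 277 pairs at the 10 genes, and the line marking equal tags. The 9 pairs lower by 2-fold or more (yellow) and the 4 higher (purple) carry the gene whose window holds them, and most dark points follow the line.

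Nfix, an NFI gene of late RPCs, held 3 of the 9 lower pairs. The middle intronic peak had 54 tags in control and 18 in Ngn3-OE, a log2 ratio of −1.67 (−2.52 to −0.87), and lay 5580 bp from the start site of G430095P16Rik and 44809 bp from that of Nfix. A distal intronic peak, 10404 bp from the start site of G430095P16Rik and 60793 bp from that of Nfix, had 33 and 11 tags (−1.67, −2.80 to −0.65). The intergenic peak of the window had 25 and 6 tags (−2.14, −3.72 to −0.82), the lowest ratio of all 133 pairs, but it lay 7098 bp from the start site of Ier2, an immediate early gene, and 118 kb from that of Nfix. The 3 sequences, printed above, had a GC content of 58.2 to 59.7%.

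In the opposite direction, a peak 960 bp upstream of the outer Nfix start site had 11 tags in control and 25 in Ngn3-OE (log2 ratio 1.10, 0.03 to 2.27). It was the single promoter pair among the 4 higher ones, and its window is the sequence with 2 CATCTG cores, 15 and 50 bp from the summit. At the inner start site the strongest peak had 25 and 21 tags. The strongest peak in the Nfix window, with 131 and 132 tags, was at the promoter of Calr, which encodes the chaperone calreticulin. The strongest one-library peaks of Nfix had 9 tags in control and 10 in Ngn3-OE.

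**Figure D4:**
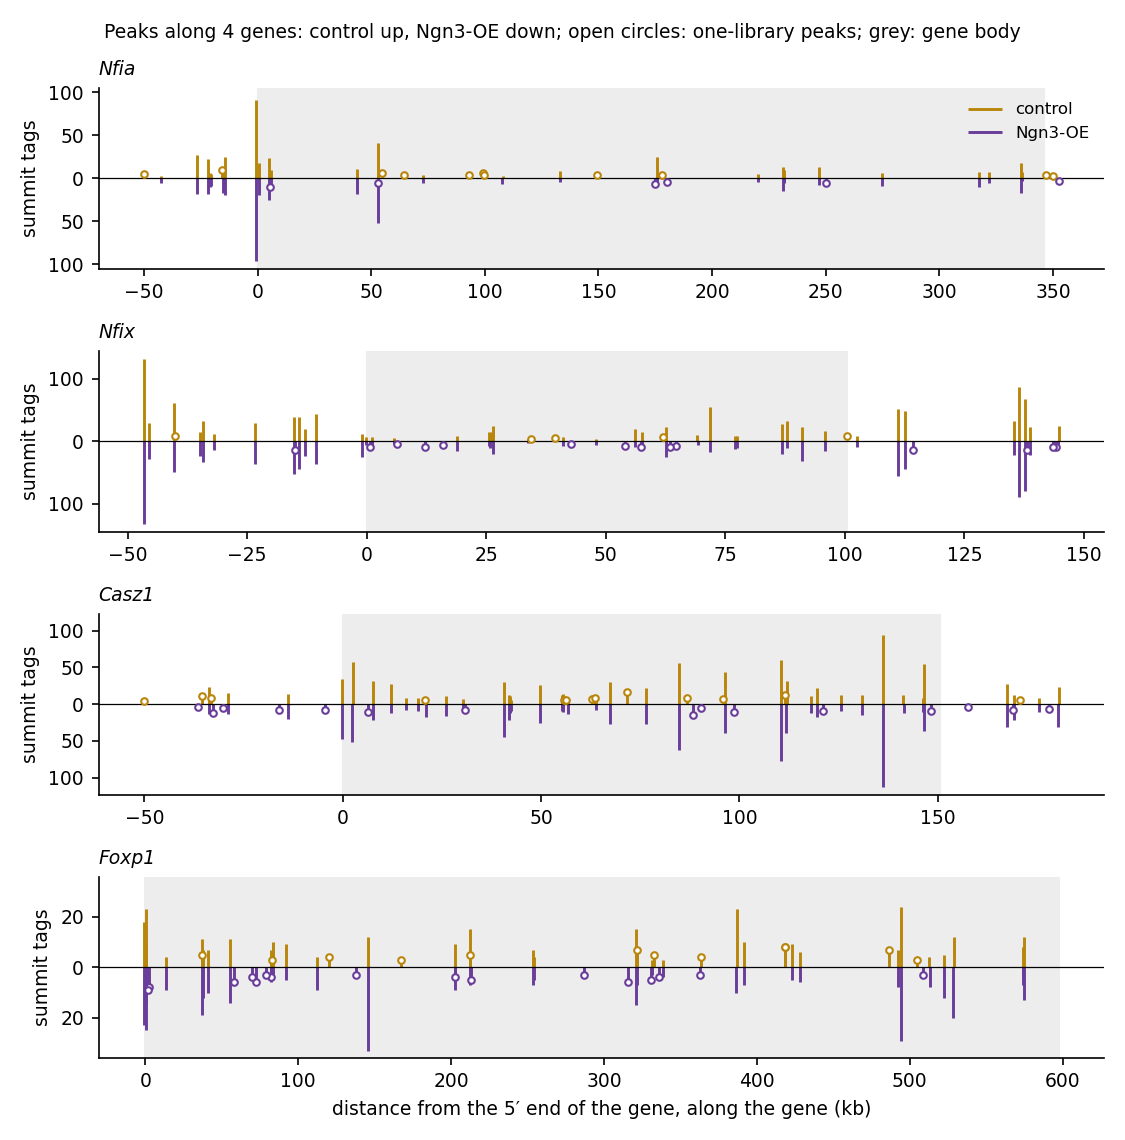
Peaks along Nfia, Nfix, Casz1 and Foxp1, with distance from the 5′ end of the gene in kb on the x axis and tags at the summit on the y axis, control drawn upward and Ngn3-OE downward, the gene body shaded and peaks of a single library tipped with an open circle. The strong peaks appear in both directions at each gene, such as 91 and 96 tags at the 5′ end of Nfia and 94 and 113 tags in Casz1, and the open circles sit on short lines.

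Nfia, which promotes gliogenesis, kept its start region and was lower at an intronic peak. Its strongest peak lay 5.30 kb upstream of the nearest start site in the basic annotation, just outside the 5′ end of the full gene body, with 91 tags in control and 96 in Ngn3-OE, and held the octamer ATGCAAAT. The start-site peak had 23 and 26 tags. A peak 171 kb into the gene had 25 and 8 tags, a log2 ratio of −1.73 (−3.09 to −0.53), the lowest ratio inside the 10 gene bodies among pairs with at least 30 tags. The highest pair at Nfia under the same tag limit had 41 and 52 tags (0.26, −0.36 to 0.89).

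Nfib, the NFI gene with the most peaks, held a lower and a higher intronic pair. Near the 5′ end of its body, a peak had 44 tags in control and 19 in Ngn3-OE (log2 ratio −1.29, −2.15 to −0.49), and its nearest coding start site was that of Zdhhc21. The higher peak had 9 and 23 tags (1.27, 0.11 to 2.57) and carried the complete NGN3 E-box, 86 bp from the summit, together with the homeobox motif TAATCC. Its strongest peak, 7.42 kb upstream of the nearest start site, had 72 and 90 tags. The strongest peak at its outer start sites had 22 tags in both libraries, and the pair 8 bp from the inner start site had 19 and 13.

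At Nfic no control peak lay within 1 kb of any of the 5 start sites, and Ngn3-OE had a peak of 14 tags at 1 of them, without a counterpart. An intronic peak 5.35 kb from a start site had 10 and 22 tags (log2 ratio 1.06, −0.08 to 2.30), with an interval that included 0. The strongest peak of the window, with 133 and 121 tags, was at the promoter of Hmg20b. Among pairs with at least 30 tags over both libraries, the lowest, with 70 and 50 tags (−0.57), was at that of Mfsd12. The body of Nfic itself held 333 of the 1000 control tags of the window.

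Casz1, a zinc finger gene that favours rods over Müller glia, had strong peaks in both libraries. Its only start site had a peak of 34 tags in control and 47 in Ngn3-OE. An intronic peak 136 kb from the start site was the strongest, with 94 and 113 tags. A peak 146608 bp from the start site had 55 and 36 tags (log2 ratio −0.69, −1.34 to −0.06), and a peak at 2532 bp had 58 and 51 (−0.27, −0.84 to 0.30). Of these 4 pairs only that with 55 and 36 tags had an interval that left out 0, since those of the start-site peak (log2 ratio 0.38, −0.28 to 1.07) and the strongest peak (0.18, −0.22 to 0.59) included it. The lowest pair, an intronic peak 12.2 kb from the start site, had 27 and 12 tags (log2 ratio −1.25, −2.37 to −0.22). The highest pair among those with at least 30 tags over both libraries had 12 and 22 tags (0.79, −0.29 to 1.94), a value tied by another pair. Its nearest coding start site was that of Pex14.

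Casz1 also held the strongest control-only and the strongest Ngn3-OE-only peak of the 10 genes by −log10 q. The control-only peak had 16 tags and a −log10 q of 10.7 and contained a SOX motif 77 bp from its summit. The Ngn3-OE-only peak, 32.7 kb upstream of the start site, had 12 tags and a −log10 q of 8.70. Neither sequence, printed above, contained CATCTG.

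Among the Ikaros family genes, Ikzf1 had hardly any signal of its own. The strongest peak within 1 kb of its start sites had 5 tags in control, at percentile 21.4 of its library by −log10 q, and 5 tags in Ngn3-OE, at percentile 27.7, and these were not counterparts of each other. The strongest peak of its window by −log10 q had 39 and 43 tags, and the peak with the most tags, 44 and 47, was at the promoter of Fignl1. The former and the lower pair, with 37 and 19 tags (log2 ratio −1.04, −1.92 to −0.21), were also nearest to Fignl1 among coding genes. Ikzf4 had a start-site peak of 17 tags in control and 14 in Ngn3-OE, and no pair of its window reached a 2-fold difference at 30 tags. The strongest peak there, 78 and 85 tags, was at the promoter of Rps26, a ribosomal protein gene.

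The POU genes were accessible at their start sites in both libraries. Within 1 kb of the outer Pou2f1 start sites lay 2 peaks in each library, which summed to 123 tags in control and 132 in Ngn3-OE, the strongest start-site signal of the 10 genes, and the strongest peak at the inner start sites had 33 and 30 tags. Between the inner and outer start sites an intronic peak with a SOX motif had 23 and 11 tags (log2 ratio −1.15, −2.33 to −0.05). Pou2f2 had 10 and 15 tags at its start sites. Among its pairs with at least 30 tags over both libraries, the lowest and highest (31 and 24 tags, 13 and 18 tags) had intervals that included 0. The peak with 118 and 126 tags in that window was at the promoter of Zfp574.

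Foxp1, whose window was the longest at 697 kb, held weak peaks, with a median of 7 tags in both libraries. Control had a peak within 1 kb at only 2 of its 6 start sites, which lie 1 bp apart and shared a peak of 24 tags in control and 29 in Ngn3-OE, and Ngn3-OE had an additional one-library peak of 9 tags at the outermost start site. An intronic peak had 12 and 33 tags (log2 ratio 1.38, 0.39 to 2.47), the highest ratio of the 133 pairs, and it was the strongest Ngn3-OE peak of the gene. Another intronic peak, 26.8 kb from a start site, had 23 and 10 tags (−1.28, −2.52 to −0.16). The gene therefore held a difference of 2-fold or more in each direction, as Nfib and Nfix did.

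Most of the genes had a start-site peak in both libraries. A peak lay within 1 kb of at least 1 start site of 9 of the 10 genes in control and of 10 in Ngn3-OE. The exception, Nfic, had a control peak within 3 kb. At Ikzf1 the strongest such peak had only 5 tags, and single start sites of Ikzf4 and Foxp1 had no control peak within 1 kb. The share over all coding genes is not given here, so these counts have no background. Casz1 (34 and 47), Nfia (23 and 26), Pou2f2 (10 and 15) and Foxp1 (24 and 29) had more tags in Ngn3-OE at their strongest start-site peak. Ikzf4 (17 and 14) and the inner start site of Nfix (25 and 21) had fewer. Nfib had the same at its outer start sites (22 and 22) and fewer at its inner one (22 and 16, from different regions). The shared pair 8 bp from that inner site had 19 and 13 tags. Pou2f1 had 64 and 70 tags at its outer and 33 and 30 at its inner start sites, where the strongest outer peaks were not the same region. The outer Nfix start site (11 and 25) was the only one that differed by 2-fold or more among pairs with at least 30 tags.

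Motifs were searched on both strands within 100 bp of the summit of every peak. The NGN3 E-box named by the study was in 10 control peaks at the 10 genes (2.84%, 1.55 to 5.15, against 3.65% of all control peaks) and in 17 Ngn3-OE peaks (4.61%, 2.90 to 7.25, against 4.27%). The SOX motif was in 31 control peaks (8.81%, 6.27 to 12.2, against 8.80%) and in 21 Ngn3-OE peaks (5.69%, 3.75 to 8.54, against 7.41%). These 4 intervals included the share over all peaks. The core CATCTG alone, which the E-box contains, was in 19.9% and 20.9% of the peaks, against 21.3% and 22.6% of all.

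Among one-library peaks the E-box was in 0 of 73 control-only peaks, which allows a share of up to 4.11% by the limit of 3 counts (Wilson interval up to 5.00%), and in 5 of 85 Ngn3-OE-only peaks (5.88%, 2.54 to 13.0). Over all peaks those shares were 2.14% and 4.66%. The SOX motif was in 9 of 73 control-only peaks (12.3%, 6.62 to 21.8) and 3 of 85 Ngn3-OE-only peaks (3.53%, 1.21 to 9.87), and over all peaks in 12.3% and 6.64%. The difference between the 2 sets was not tested.

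Of the 9 lower pairs, 3 held the SOX motif, at Nfia, Nfix and Pou2f1, against 28.6% of all 1561 lower pairs, and none held the E-box. Of the 4 higher pairs, 1 held the E-box, at Nfib, against 10.7% of all 802 higher pairs, and none held the SOX motif. The shorter SOX core ATTGT was in 7 of the 9 lower pairs (77.8%, 45.3 to 93.7), against 49.9% of all lower pairs and 15.0% of the 120 other pairs at these genes with at least 30 tags, and in none of the 4 higher pairs. The core CATCTG was in 3 of 9 lower and 3 of 4 higher pairs, against 17.4% and 31.7% of all such pairs. With so few pairs the intervals for the full motifs span 12.1 to 64.6% for the SOX motif and 4.56 to 69.9% for the E-box.

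The peaks were also searched for the motifs that these factor families bind. The NFI motif TTGGCA was in 52 control peaks (14.8%, 11.4 to 18.9, against 11.2% of all) and 48 Ngn3-OE peaks (13.0%, 9.95 to 16.8, against 10.9%), and the full NFI palindrome was in 1 control peak, at Foxp1, and in no Ngn3-OE peak. The octamer ATGCAAAT, bound by POU factors, was in 1.99% and 1.90% of the peaks against 1.52% and 1.41% of all. The forkhead motif TGTTTAC was in 2.56% and 2.71% against 2.44% and 2.38%, and the Ikaros motif TGGGAA in 17.0% and 17.9% against 18.0% and 17.7%. The homeobox motif TAATCC, bound by photoreceptor factors of the Crx and Otx type, was in 11.1% and 12.5% (8.21 to 14.8 and 9.48 to 16.2) against 13.9% and 16.5%. The control share of TTGGCA had an interval that started just above the background and the Ngn3-OE share of TAATCC one that ended just below it, and the remaining intervals included the background.

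Peaks at the 10 genes were richer in GC, with a median of 54.7% in control and 55.2% in Ngn3-OE around the summit, against 51.7% over all peaks of both libraries. The part of base composition in the motif shares was not tested. By number, the control peaks with TTGGCA were most at Nfib (11 of 60) and Casz1 (11 of 52), the genes with the most control peaks. TAATCC was most frequent by number at Casz1, with 10 of 52 control peaks and 12 of 54 Ngn3-OE peaks. No peak at Ikzf1 or Ikzf4 held the NGN3 E-box in either library.

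**Figure D5:**
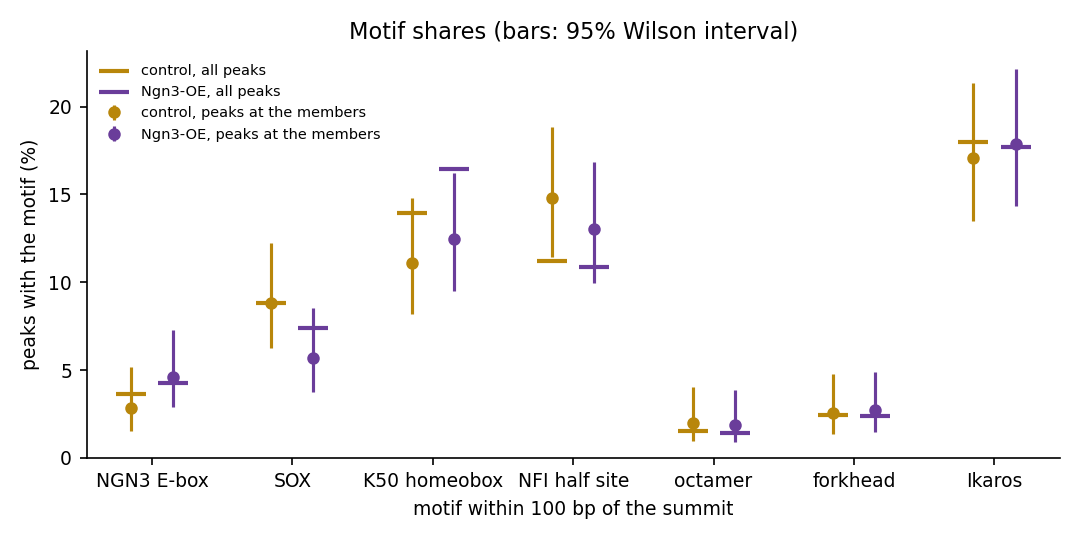
Percent of peaks with each motif within 100 bp of the summit (y axis) for control (yellow) and Ngn3-OE (purple), with points for the peaks at the 10 genes, bars for their 95% Wilson intervals, and short lines for all peaks of the library. Points and lines lie close for most motifs, such as the SOX motif in control (8.81 and 8.80%), and TAATCC in Ngn3-OE (12.5 against 16.5%) is the widest gap.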

How the data were processed

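ATAC-seq peak lists of 2 libraries, control and Ngn3-OE, were analysed, with groups taken from the sample titles. Per the submitters' notes and the study's methods, the authors trimmed reads with Trimmomatic, aligned them to mm10 with Bowtie2, removed duplicate, mitochondrial and blacklisted reads, kept fragments up to 120 bp, shifted read ends for Tn5 and called peaks in each library separately with MACS2 at a q limit of 0.05. The deposited lists give an integer score, a ratio (fold enrichment at the summit over local background) and the −log10 of the p-value and q-value per peak. They are not normalised between libraries.

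Lines with equal intervals were merged, with the best summit by −log10 q kept, and 21 chromosomes were used. Whole tags at each summit were solved from the deposited fold enrichment and −log10 p through the Poisson distribution (largest residual 0.000675 in control and 0.00191 in Ngn3-OE). How far the authors extended tags is not given in the sources used here, so tags are not a read depth, and intervals and floors (3 counts) cover counting error only. Shared peaks were paired by largest overlap, ratios were centred on the median of all pairs with exact Clopper-Pearson intervals, and shares have Wilson intervals (95%). The solving of tags, the overlap search and the 2-fold calls were tested on simulated data, and the pairing by largest overlap was not. Genes and start sites came from the GENCODE basic mm10 annotation and sequence from GRCm38. The named peaks of each gene were the strongest of each list, the strongest one-library peaks, the largest rise and fall among shared peaks with at least 30 tags, and the strongest within 1 kb of a start site. The 2-fold limit, the genes and the lists were chosen with earlier results of these data known. Alternatives changed the flank, overlap rule, q limit, list length, centring, promoter distance, motif window and motif core. Python 3.11.15, numpy 2.4.6, pandas 2.3.3 and scipy 1.17.1 were used. The authors' differential regions were not used here, and 1 progenitor marker is not reported here.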

Additional observations from a re-analysis of the deposited data

How the results depend on the processing

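Each group had 1 library, so no replicate could be left out. No paired analysis was possible because 1 library per group leaves nothing to pair. Peak counts at the 10 genes were 230 in control and 240 in Ngn3-OE with the gene body only, and 228 and 234 where the nearest coding start site had to be that of the gene. The share of control peaks that were shared was 70.5% at an overlap of 50% of both peaks (68.0% of all peaks) and 90.9% with a −log10 q limit of 5 on the queried list only (92.1%). For Ngn3-OE it was 67.2% (63.8% of all) and 91.6% (89.7%), with 72.4% for summits within 100 bp (70.3%) and 83.9% for the top 50000 peaks (80.1%). With the limit on both lists the shares were 81.4% and 80.3% (81.7% and 77.0% of all). Control-only and Ngn3-OE-only peaks numbered 22 and 21 at the limit on the queried list and 30 and 24 in the top 50000. The summed log2 ratio was 0.033 as the median pair, 0.041 without centring and 0.017 for peaks nearest to the gene itself, so its sign depended on the setting. Of 60 recounts of the ratio of a single gene, 8 left the gene's counting interval, among them the gene body values of Nfix, Pou2f1, Nfic (0.19) and Ikzf1 (0.65). Gene body recounts without the peaks lower by 2-fold or more, added after seeing the data and moved toward 0 by their own construction, gave −0.14 (−0.41 to 0.12) for Nfix and −0.33 (−0.80 to 0.13) for Pou2f1. With motif windows of 50 bp the E-box share was 0.852% in control, below the 2.59% of all peaks, and 2.98% in Ngn3-OE (3.05% of all), and the SOX shares were 5.40% and 2.71% (4.85% and 3.75%). With 250 bp the SOX shares were 18.2% and 16.8% (18.0% and 16.9%). Cores alone gave 19.9% and 20.9% for the E-box (21.3% and 22.6%) and 23.0% and 20.1% for SOX (25.3% and 23.2%). Promoter shares at 1 kb were 21.6% and 22.8%. The cause of these changes was not tested beyond the narrower or wider definitions themselves. Most one-library peaks rest on few tags, and the part of counting error in them was not tested.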

Other observations

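A list of 18 further genes of the same families and of temporal competence (Ikzf2, Ikzf3, Ikzf5, Pou2f3, Foxp2, Foxp3, Foxp4, Foxn4, Onecut1, Onecut2, Lin28a, Lin28b, Hmga2, Prtg, Dicer1, Nr2f1, Nr2f2 and Lhx2) held 265 control and 276 Ngn3-OE peaks by the same window. The one-library shares were 22.6% and 25.4%, beside 21.7% and 26.6% of all peaks. Of 80 pairs with at least 30 tags, 4 (5.00%) were lower by 2-fold or more and 1 (1.25%) was higher, beside 4.29% and 2.20% of all pairs. A start-site peak was present at 15 genes in each library, and the median gene had a log2 ratio of 0.07, with 6 of 18 below 0.

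Foxp2, a forkhead relative of Foxp1, stood lowest, with 220 tags in control and 138 in Ngn3-OE over 14 pairs (log2 ratio −0.76). Hmga2, a chromatin protein of early progenitors, had 155 and 117 tags over 14 pairs (−0.49), and Nr2f1, an orphan nuclear receptor, had 426 and 371 over 15 pairs (−0.28). At the other end, Lhx2, a homeobox gene of progenitors and Müller glia, had 212 and 274 tags over 14 pairs (0.29). Its start-site peak went the other way, with 72 tags in control and 61 in Ngn3-OE. The ratios of this list are given without intervals.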
